A study of Mus musculus with 10 samples.

Results

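The genes of the eukaryotic translation initiation factors were compared between mouse bone marrow-derived macrophages treated with PLG and untreated cells. Members were chosen by name: every protein-coding gene of the deposited table whose symbol starts with Eif and a digit, leaving out Eif2ak2, an interferon-induced kinase whose values are given once beside the other kinases. The rule gave 55 of 16936 genes, and 51 of them reached 1 FPKM (sequenced fragments scaled by gene length and library size) in at least 5 of the 10 samples and were tested. They were ordered by factor number into 9 groups. The rule did not use the values of the members, but it was set with earlier results of these data known.

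The study sequenced total RNA of macrophages grown from marrow in 7 days of GM-CSF, given at 50 ng/mL. The untreated group (5 samples) received nothing further and the PLG group (5 samples) received PLG for 24 h, which the series' design text names as human plasminogen, the zymogen of the clot-dissolving protease plasmin. Neither group carried a named allele, the labels give no strain, age or PLG dose, and they name no control preparation. The labels do not say which mouse or culture a replicate came from, so p-values reflect spread among these samples only, which may be technical.

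Initiation factors bring the ribosome to the start codon. The eIF2 trimer carries the initiator tRNA, eIF1, eIF1A and eIF3 hold the small subunit open for scanning, and the eIF4F complex, made of the cap-binding eIF4E, the scaffold eIF4G and the helicase eIF4A, recruits the mRNA by its cap. eIF5 and eIF5B complete the joining of the subunits, eIF5A acts mainly in elongation and termination, and eIF6 keeps free large subunits from joining. Control falls on 2 steps: kinases phosphorylate eIF2 and so block its recycling by eIF2B, and hypophosphorylated eIF4E-binding proteins keep eIF4E from eIF4G. In macrophages both steps are known to shape cytokine output after stimulation.

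The libraries held 28426000 to 64215000 reads on the genes of the table, as recovered from the steps of the low FPKM values. Samples of 1 group correlated at 0.976 to 0.995 across genes on the log2 scale and samples of different groups at 0.847 to 0.868. Markers of macrophages fitted the label, with 9 of 10 at or above 1 FPKM in every sample, but their summed level was lower with PLG (6153 to 7722 FPKM untreated, 3300.0 to 3389 FPKM with PLG), with 7 of 10 lower and 2 higher. Lyz2 carried that sum (5098 to 6616 FPKM untreated, 1902 to 2107 FPKM with PLG), and the other 9 summed to 1055 to 1212 FPKM untreated and 1251 to 1408 FPKM with PLG. Of those 9, Cd14 (30.5 to 38.2 FPKM untreated, 454 to 572 FPKM with PLG) and Adgre1 (72.8 to 85.8 FPKM, 164 to 191 FPKM) were higher. Cd68, Itgam, Csf1r, Mertk, Aif1 and Tyrobp were lower like Lyz2, and Fcgr1 did not pass. The summed level of 8 dendritic cell markers was higher (297 to 339.5 FPKM untreated, 675 to 747 FPKM with PLG), with 4 higher and 2 lower. Here Ccr7 carried the rise (26.8 to 53.4 FPKM untreated, 507 to 574 FPKM with PLG). The other 7 summed to 265 to 295 FPKM untreated and 165 to 182 FPKM with PLG. Itgax carried that fall (258 to 288 FPKM untreated, 148 to 166 FPKM with PLG), and Cd209a was lower too. At far lower levels, Flt3, Zbtb46 and Dpp4 were higher like Ccr7. Flt3 measured 0.056 to 0.175 FPKM untreated and 1.644 to 2.831 FPKM with PLG. For Dpp4 these ranges were 1.702 to 2.836 FPKM and 6.891 to 8.111 FPKM. All markers of T and NK cells, B cells and erythroid cells found in the table stayed below 1 FPKM in every sample, while the sum of 8 neutrophil markers was 11.02 to 20.9 FPKM untreated and 17.7 to 26.9 FPKM with PLG, with 2 higher. The sum of 5 mast cell and basophil markers was 7.4 to 17.2 FPKM untreated and 8.24 to 11.8 FPKM with PLG, with Kit lower. That of 9 stromal markers was 1.04 to 1.89 FPKM untreated and 0.747 to 1.89 FPKM with PLG. In bulk RNA, fewer cells of a type and less RNA per cell cannot be told apart, and the part of these shifts in the values of the initiation factors was not tested.

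Some libraries stood apart from the rest. Reads on 3 repeat-like gene models, Gm10800, Gm10801 and Gm21738, made up 0.13% of all reads in PLG 3, 0.201% in PLG 4 and 0.797% in untreated 2, and 2.13% to 5.92% in the other 7 libraries. The initiation factors moved with this split: 23 of the 51 tested members (45.1%) had PLG 3 and PLG 4 both above the other PLG samples, against 23.9% of all genes tested. In 2 members (3.92%), Eif4g1 and Eif4ebp2, both were below, against 8.78% of all genes tested. Its part in the results was not tested, and the calls were therefore also counted without these 3 libraries.

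**Figure D1:**
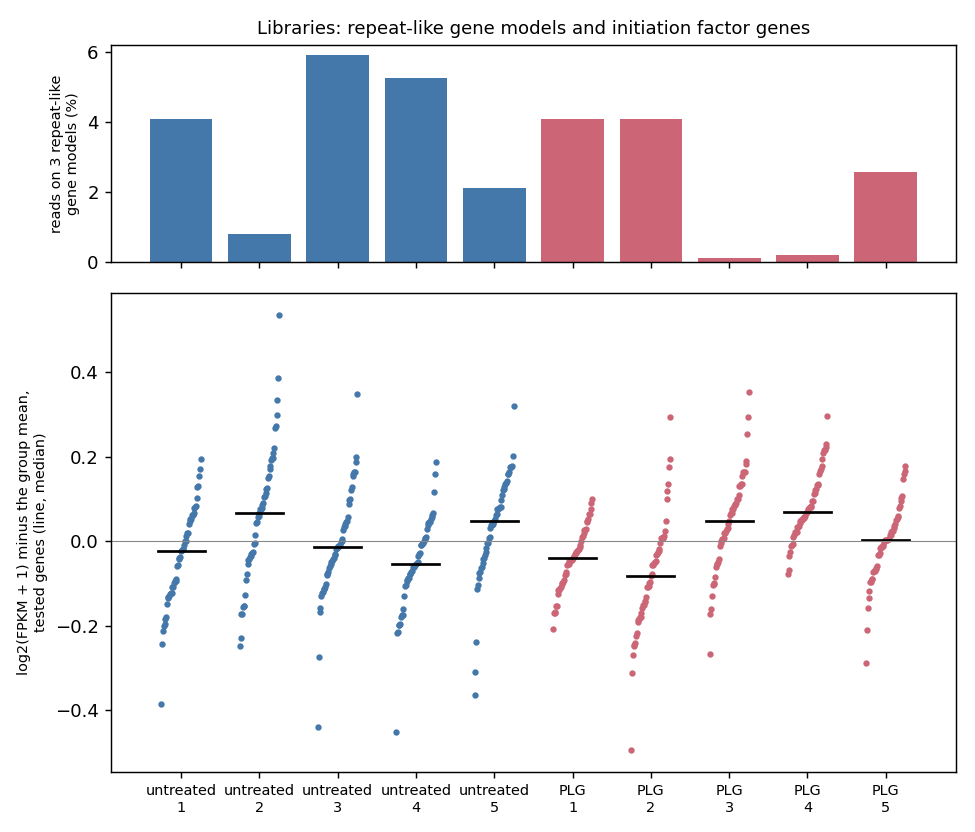
Upper panel: percent of reads on the 3 repeat-like gene models in each library. Lower panel: log2(FPKM + 1) of the 51 tested initiation factor genes minus the mean of their group, with the median as a line. PLG 3 and PLG 4 have the lowest bars, at 0.13% and 0.201%, and medians of 0.047 and 0.069 log2 units above their group.

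With PLG, 11 of the 51 tested initiation factor genes rose and 15 fell, and 25 did not pass (limma on log2(FPKM + 1), adjusted p under 0.05). The 26 called members were 51.0% of those tested, against a background of 60.4% of all 9997 genes tested, of which 29.1% were higher and 31.3% lower. The order of these shares turned only after quantile normalization and with no filter on low values, and held under the other ways of processing. After quantile normalization 62.7% of members and 62.1% of genes passed. Without the filter 45.5% of 55 members and 39.9% of 16927 genes passed, a wider set of genes that includes those at low levels. The changes of the members were smaller than those of genes at large. Their median absolute log2 fold change was 0.17 against 0.30 for all genes tested. With the main settings no member changed by more than 1 log2 unit, against 14.1% of all genes. Over the alternative settings the log2 fold change of Eif4ebp2 ran from -1.07 to -0.85. The tested members also had a higher median level, 14.4 FPKM against 7.22 FPKM for all genes tested, and genes were not matched for level. In 16 members (31.4%) the samples of both groups did not overlap in FPKM, against 47.2% of all genes. The summed FPKM of all members was 1383 ± 46.8 (SD, n = 5) untreated and 1385 ± 60.2 (SD, n = 5) with PLG. Levels written with ± below are likewise the mean and SD of 5 samples.

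These counts moved with the scaling of the samples. Scaled to a common sum of FPKM, a sum that includes the repeat-like models, 10 members were higher and 4 lower (Eif2a, Eif4a1, Eif4b and Eif4ebp2), and Eif1b, Eif2s2, Eif2s3x, Eif2ak1, Eif2ak3, Eif2ak4, Eif3a, Eif3l, Eif4e3, Eif4g1, Eif4g3 and Eif5b no longer passed. Scaled by the median of ratios, 14 were higher and 12 lower. Quantile normalization went the other way, with 11 higher and 21 lower: Eif1a, Eif3b, Eif3f, Eif3i, Eif4g2 and Eif5a then passed as lower. Without untreated 2, PLG 3 and PLG 4, 11 were higher and 12 lower, and Eif2ak3, Eif2s2, Eif2s3x and Eif4e3 lost their call. Of the 26 called members, 14 kept their call and direction under every one of the 23 alternatives that gave them a value: Eif1, Eif2a, Eif2b2, Eif2b4, Eif3c, Eif4e, Eif4e2, Eif4a1, Eif4a2, Eif4b, Eif4h, Eif4ebp2, Eif5a2 and Eif6.

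**Figure D2:**
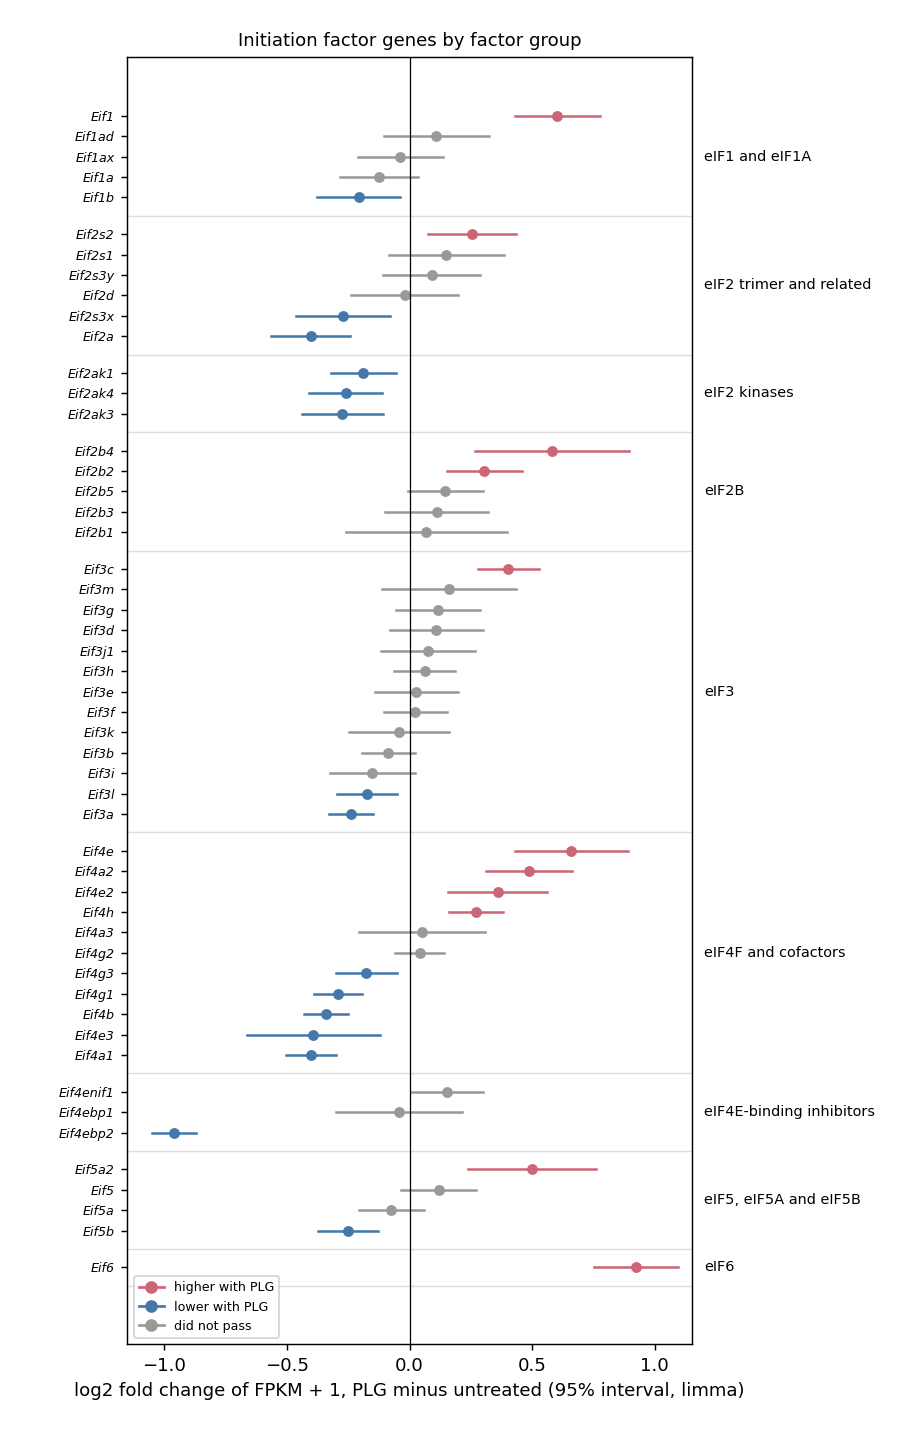
Log2 fold change of FPKM + 1 (PLG minus untreated) with its 95% interval from limma for the 51 tested initiation factor genes, by factor group and coloured by call. Values run from -0.96 for Eif4ebp2 to 0.92 for Eif6, and the eIF4F group holds 4 genes higher and 5 lower.

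The largest change of any member was that of Eif4ebp2, which encodes an eIF4E-binding protein that inhibits cap-dependent initiation. It measured 43.3, 42.7, 42.5, 44.3 and 41.7 FPKM in untreated 1 to 5 and 21.9, 21.7, 20.7, 21.4 and 22.2 FPKM in PLG 1 to 5. Every untreated sample lay above every PLG sample, at a level 1.99 times as high, and the samples within a group differed by little (log2 fold change -0.96 with SE 0.041, adjusted p = 1.75e-10 in limma). The closely related Eif4ebp1, the inhibitor best known as a target of mTORC1, measured 15.7, 16.8, 16.01, 12.3 and 11.3 FPKM in untreated 1 to 5 and 13.1, 17.2, 11.3, 13.5 and 14.7 FPKM in PLG 1 to 5. Its groups overlapped (log2 fold change -0.043 with SE 0.12, adjusted p = 0.778 in limma; 95% interval -0.30 to 0.21). Within each sample the log2 ratio of Eif4ebp1 to Eif4ebp2 moved from -1.59 ± 0.25 to -0.64 ± 0.20 (SD, n = 5 each; exact permutation test, 2-sided, p = 0.00794, the smallest that 5 against 5 samples allow; adjusted over 14 ratios, 0.0185). Eif4ebp2 thus made up 73.8% ± 2.43 of the summed FPKM of the Eif4ebp genes in untreated samples and 59.6% ± 2.83 with PLG (SD, n = 5 each).

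The other members of this group were Eif4enif1, a nuclear import factor and repressor that binds eIF4E, at 8.52 ± 0.593 FPKM untreated and 9.59 ± 0.705 FPKM with PLG (limma adjusted p = 0.0668), and Eif4ebp3. Eif4enif1 passed as higher without untreated 3 and without PLG 3 (log2 fold changes 0.18 and 0.19), without untreated 2, PLG 3 and PLG 4 (0.20) and when scaled by the median of ratios (0.19). Eif4ebp3, at 0 to 1.81 FPKM (0 to 46 reads per library), reached 1 FPKM in 4 samples only and was not tested, and its gene overlaps another on the same strand.

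Eif4e, the cap-binding subunit held by those inhibitors, rose. Its level was 6.68, 6.28, 8.18, 6.06 and 9.23 FPKM in untreated 1 to 5 and 11.96, 10.4, 13.5, 12.8 and 11.3 FPKM in PLG 1 to 5, and all PLG samples lay above all untreated samples (log2 fold change 0.66 with SE 0.11, adjusted p = 1.08e-04 in limma). Eif4e2, a cap-binding homolog that takes part in repressing translation, measured 7.23, 10.3, 7.55, 8.305 and 8.65 FPKM in untreated 1 to 5 and 9.68, 10.1, 12.4, 11.98 and 11.02 FPKM in PLG 1 to 5. It rose as well, although untreated 2 lay above PLG 1 and PLG 2 (log2 fold change 0.36 with SE 0.093, adjusted p = 0.00437 in limma). Eif4e3, an atypical cap-binding homolog, went the other way, at 8.27, 9.71, 5.55, 7.71 and 8.78 FPKM in untreated 1 to 5 and 6.14, 6.76, 5.796, 5.84 and 4.55 FPKM in PLG 1 to 5. Here untreated 3 was the lowest untreated sample and lay within the range of the PLG samples (log2 fold change -0.39 with SE 0.13, adjusted p = 0.0156 in limma).

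The proportions within the cap-binding family also differed. The log2 ratio of Eif4e to Eif4e3 rose by 1.18 (exact permutation test, p = 0.00794, adjusted p = 0.0185), a linear ratio of 0.913 untreated and 2.07 with PLG. The ratio of Eif4e to Eif4e2 differed by 0.34 log2 units and did not pass (exact permutation test, adjusted p = 0.111), but passed without untreated 3 (0.42) and without untreated 5 (0.41). The log2 ratio of Eif4ebp1 to Eif4e fell from 0.99 to 0.21 (exact permutation test, adjusted p = 0.0370), a call that was lost without any 1 of untreated 1, 2, 3 and 4 and PLG 1, 3, 4 and 5, with differences then of -0.82 to -0.66. The remaining member, Eif4e1b, known for its expression in oocytes, had 1 read in 1 library. The gene Eif4e3 overlaps Gm20696 on the same strand, so their reads may be divided.

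The promoter windows of Eif4e and of other eIF4F genes hold the letters CACGTG, the canonical E-box bound by Myc and related factors, and are shown because Eif4e is a textbook Myc target. RefSeq's windows on GRCm38.p6 run from 250 bases before to 50 after a start and were matched by symbol for 42 of the 55 members. CACGTG, which reads the same on both strands, occurred in those of 10 members (23.8%), against 12.4% of the tested genes and 8.09% of all genes with a window, and 7.15% of all windows. Stretches around it, each 5′ to 3′ on the gene's strand with CACGTG in capitals, are given for 2 genes that rose, Eif4e and Eif4h, and 2 that fell, Eif4a1 and Eif4g1.
Eif4e, chr3:138527018-138527067, plus strand: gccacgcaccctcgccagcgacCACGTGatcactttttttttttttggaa
Eif4e, chr3:138527182-138527231, plus strand: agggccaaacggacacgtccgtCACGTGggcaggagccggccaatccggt
Eif4h, chr5:134639478-134639527, minus strand: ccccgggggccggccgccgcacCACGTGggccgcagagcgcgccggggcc
Eif4a1, chr11:69672585-69672634, minus strand: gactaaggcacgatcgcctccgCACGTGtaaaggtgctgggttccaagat
Eif4g1, chr16:20672651-20672700, plus strand: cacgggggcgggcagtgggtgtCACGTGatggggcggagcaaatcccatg
The first base of the motif lies 228 and 64 bases before the start for Eif4e, 96 for Eif4h, 189 for Eif4a1 and 54 for Eif4g1, which holds a further CACGTG from base 16 of the annotated transcript, not shown. Of the 10 members with the letters, 3 rose (Eif4e, Eif4h and Eif5a2), 4 fell (Eif1b, Eif3a, Eif4a1 and Eif4g1) and 3 did not pass (Eif3f, Eif3k and Eif5a). The match is a description of the sequence and not a site or a cause.

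The helicase genes of eIF4F changed in opposite directions. Eif4a1, the main eIF4A helicase and the most abundant member in untreated cells, measured 133, 140.2, 131, 129 and 141 FPKM in untreated 1 to 5 and 98.5, 98.04, 108, 108 and 96.8 FPKM in PLG 1 to 5. Every PLG sample lay below every untreated sample (log2 fold change -0.40 with SE 0.048, adjusted p = 6.19e-06 in limma). Eif4a2, its close paralog, which has been linked to microRNA-mediated repression, measured 15.5, 17.6, 15.8, 15.3 and 16.8 FPKM in untreated 1 to 5 and 21.1, 19.7, 26.3, 26.5 and 22.5 FPKM in PLG 1 to 5. All PLG samples were above all untreated ones, with PLG 3 and PLG 4 the highest (log2 fold change 0.49 with SE 0.081, adjusted p = 1.46e-04 in limma). The linear ratio of Eif4a1 to Eif4a2 was 8.33 untreated and 4.41 with PLG, a difference of -0.92 on the log2 scale (exact permutation test, p = 0.00794, adjusted p = 0.0185).

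Of the summed FPKM of the eIF4A genes, Eif4a1 took 79.6% ± 1.33 untreated and 70.8% ± 2.24 with PLG, and Eif4a2 took 9.56% ± 0.363 and 16.1% ± 0.891 (SD, n = 5 each). Eif4a3, which works in the exon junction complex rather than at the cap, was at 18.3 ± 2.42 FPKM untreated and 19.1 ± 3.66 FPKM with PLG (limma adjusted p = 0.738). The log2 ratio of Eif4a1 to Eif4a3 fell by 0.46 (exact permutation test, adjusted p = 0.0318), a call lost without untreated 2 and without PLG 1, 3, 4 or 5, with differences then of -0.50 to -0.38. Eif4a3l2, a related gene, had 0 to 3 reads per library. Reads of near-identical copies may have been divided among these genes, Eif4a2 overlaps Rfc4 on the opposite strand, and the strand setting of the counting is not given in the sources used here.

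Among the scaffold genes Eif4g1, which joins eIF4E, eIF4A and eIF3, fell. It measured 73.7, 69.5, 68.3, 68.5 and 75.1 FPKM in untreated 1 to 5 and 58.3, 58.8, 53.8, 58.2 and 60.2 FPKM in PLG 1 to 5, with no overlap between groups (log2 fold change -0.29 with SE 0.046, adjusted p = 8.83e-05 in limma). Eif4g3, its paralog, fell from 16.6 ± 0.962 FPKM to 14.6 ± 0.789 FPKM (log2 fold change -0.18 with SE 0.057, adjusted p = 0.0172 in limma), and its groups overlapped. Eif4g2 (DAP5), which lacks the eIF4E-binding region and serves cap-independent initiation, stood at 86.3 ± 5.06 FPKM untreated and 88.7 ± 2.17 FPKM with PLG, which did not pass (limma adjusted p = 0.461). After quantile normalization Eif4g2 passed as lower too (log2 fold change -0.19, limma adjusted p = 0.00208). The log2 ratio of Eif4g1 to Eif4g2 was -0.28 untreated and -0.62 with PLG (exact permutation test, p = 0.00794, adjusted p = 0.0185). The ratio of Eif4g1 to Eif4g3 did not pass (difference -0.11 log2 units, exact permutation test, adjusted p = 0.0889), but passed without PLG 1 (-0.14) and after quantile normalization (-0.24).

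The helicase cofactors eIF4B and eIF4H, which share an RNA-binding role beside eIF4A, also diverged. Eif4b measured 54.3, 56.4, 53.01, 54.95 and 54.5 FPKM in untreated 1 to 5 and 41.3, 41.3, 43.7, 44.8 and 43.96 FPKM in PLG 1 to 5. Every PLG sample was below every untreated sample (log2 fold change -0.34 with SE 0.041, adjusted p = 7.92e-06 in limma). Eif4h, whose promoter stretch is shown above, measured 25.4, 27.6, 25.9, 26.8 and 24.96 FPKM in untreated 1 to 5 and 31.3, 30.6, 34.1, 33.4 and 29.6 FPKM in PLG 1 to 5. It rose without overlap (log2 fold change 0.27 with SE 0.051, adjusted p = 4.32e-04 in limma). Of the 11 tested genes of eIF4F and its cofactors, 4 rose, 5 fell and 2 did not pass, and their summed FPKM was 448 ± 13.4 untreated and 409 ± 17.8 with PLG (SD, n = 5 each).

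**Figure D3:**
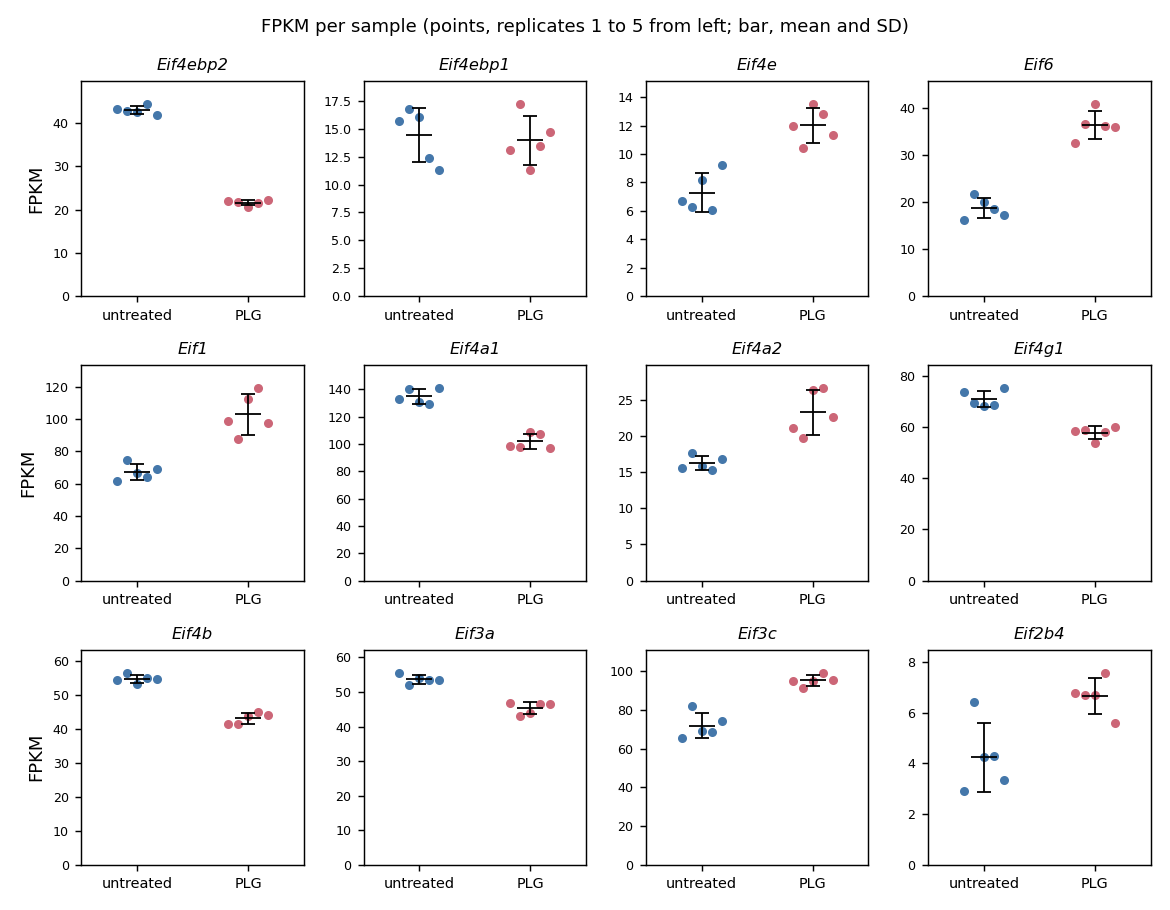
FPKM of 12 initiation factor genes in each sample (points, replicates 1 to 5 from left) with mean and SD, on axes that start at 0. Eif4ebp2 sits near 43 FPKM untreated and near 22 FPKM with PLG, while the points of Eif4ebp1 overlap.

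Eif6, which keeps the large ribosomal subunit from joining too early and also acts in its biogenesis, showed the largest rise. It measured 16.2, 21.7, 20.04, 18.5 and 17.3 FPKM in untreated 1 to 5 and 32.5, 36.5, 40.8, 36.1 and 35.95 FPKM in PLG 1 to 5. All PLG samples exceeded all untreated ones, at 1.94 times the untreated mean (log2 fold change 0.92 with SE 0.079, adjusted p = 2.03e-07 in limma). Eif6 moved from rank 18 to rank 13 of the members by mean FPKM. It is the only member of its group.

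Eif1, whose product keeps the small subunit scanning until a start codon in good context is met, ranked second by level with PLG. Its values were 61.6, 74.8, 66.4, 64.5 and 69.1 FPKM in untreated 1 to 5 and 98.6, 87.5, 113, 119 and 97.5 FPKM in PLG 1 to 5. The groups did not overlap, and PLG 3 and PLG 4 were the highest (log2 fold change 0.60 with SE 0.079, adjusted p = 1.65e-05 in limma). Its paralog Eif1b was lower, at 17.8 ± 2.07 FPKM untreated and 15.3 ± 1.11 FPKM with PLG, with overlapping groups (log2 fold change -0.21 with SE 0.078, adjusted p = 0.0356 in limma). That call passed in 11 of 23 alternatives only and was lost without untreated 1, 4 or 5 and without PLG 1, 4 or 5, where its adjusted p was 0.0534 to 0.0936. The linear ratio of Eif1 to Eif1b went from 3.79 to 6.73 and that of Eif1 to Eif1ax from 11.1 to 17.5 (exact permutation tests, adjusted p = 0.0185 for both). The eIF1A genes Eif1a (29.6 ± 3.397 FPKM untreated, 26.9 ± 1.54 FPKM with PLG), Eif1ax (6.06 ± 0.485 FPKM, 5.89 ± 0.632 FPKM) and the related Eif1ad (6.33 ± 0.841 FPKM, 6.91 ± 0.891 FPKM) did not pass in limma. Eif1a passed as lower after quantile normalization (log2 fold change -0.22) and with the repeat-like models as a covariate (-0.20).

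Of the subunits of the eIF2 trimer 1 rose and 1 fell, both by under 0.3 log2 units. Eif2s1, the subunit that the kinases phosphorylate, was at 11.9 ± 2.17 FPKM untreated and 13.2 ± 1.52 FPKM with PLG (limma adjusted p = 0.253), although it passed as higher without untreated 2 (log2 fold change 0.23). Eif2s2, the beta subunit, rose from 10.8 ± 1.08 FPKM to 13.1 ± 1.44 FPKM (log2 fold change 0.26 with SE 0.083, adjusted p = 0.0169 in limma), and Eif2s3x, the X-linked gamma subunit, fell from 15.2 ± 2.08 FPKM to 12.4 ± 0.938 FPKM (log2 fold change -0.27 with SE 0.088, adjusted p = 0.0169 in limma). Both had overlapping groups. Eif2s3y, the Y-linked copy of the gamma subunit, was at 9.71 ± 1.13 FPKM untreated and 10.4 ± 1.18 FPKM with PLG, which did not pass (limma adjusted p = 0.414), and reads may be divided between these 2 near-identical genes. Outside the trimer, Eif2a, an alternative initiator tRNA carrier, measured 6.97, 8.11, 7.54, 6.73 and 6.798 FPKM in untreated 1 to 5 and 5.02, 4.63, 5.42, 5.82 and 5.22 FPKM in PLG 1 to 5. Its groups did not overlap (log2 fold change -0.40 with SE 0.074, adjusted p = 3.42e-04 in limma). Eif2d, an alternative initiator tRNA carrier known for acting in reinitiation and recycling, was at 3.46 ± 0.757 FPKM untreated and 3.36 ± 0.088 FPKM with PLG (limma adjusted p = 0.878).

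Messages of the translation machinery often start with a C followed by pyrimidines, the TOP element through which mTORC1 controls their translation. A C followed by at least 4 pyrimidines exactly at an annotated start on the gene's strand was found in 2 of the 42 matched members (4.76%), against 2.87% of the tested genes and 3.01% of all genes with a window. The stretches around these starts are given 5′ to 3′ on GRCm38.p6 with the run from the first transcribed base in capitals.
Eif2s3x, chrX:94212632-94212671, minus strand: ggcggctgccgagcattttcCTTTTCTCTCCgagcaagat
Eif3f, chr7:108934395-108934434, plus strand: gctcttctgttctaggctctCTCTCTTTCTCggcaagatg
Both runs are 11 bases long. Eif2s3x fell and Eif3f did not pass (47.7 ± 3.25 FPKM untreated, 48.5 ± 3.09 FPKM with PLG), although quantile normalization made it pass as lower (log2 fold change -0.14). A start annotated a few bases away would be missed by this search, and nothing follows from it about translation.

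All 3 eIF2 kinases among the members fell, but all 3 lost their call when scaled to a common sum. Eif2ak1 also lost it with the replicate block, and Eif2ak3 without untreated 2, PLG 3 and PLG 4. Eif2ak4 (GCN2), the sensor of uncharged tRNA, measured 8.21, 8.26, 8.08, 7.04 and 7.43 FPKM in untreated 1 to 5 and 6.199, 6.32, 5.71, 6.93 and 6.601 FPKM in PLG 1 to 5. The lowest untreated sample, untreated 4, lay just above the highest PLG sample, PLG 4 (log2 fold change -0.26 with SE 0.069, adjusted p = 0.00526 in limma). Eif2ak1 (HRI), the haem-regulated kinase, went from 11.96 ± 0.699 FPKM to 10.4 ± 0.643 FPKM without overlap (log2 fold change -0.19 with SE 0.061, adjusted p = 0.0174 in limma), and Eif2ak3 (PERK), the kinase of the endoplasmic reticulum stress response, from 8.25 ± 0.8499 FPKM to 6.64 ± 0.455 FPKM with overlap (log2 fold change -0.27 with SE 0.077, adjusted p = 0.00722 in limma). Their ratios to one another did not pass: that of Eif2ak1 to Eif2ak4 differed by 0.09 log2 units and that of Eif2ak3 to Eif2ak4 by -0.01 (exact permutation tests, adjusted p = 0.185 and 0.952), but the first passed without PLG 2 (0.13). The double-stranded RNA kinase Eif2ak2 (PKR), left out by the rule, moved the opposite way, from 15.1 ± 1.56 to 28.7 ± 0.676 FPKM (SD, n = 5 each; log2 fold change 0.89, SE 0.064, limma adjusted p = 3.65e-08).

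Of the 5 subunits of eIF2B, the nucleotide exchange factor of eIF2, 2 rose, and the other 3 had positive fold changes that did not pass. Eif2b4 measured 2.91, 6.41, 4.23, 4.296 and 3.33 FPKM in untreated 1 to 5 and 6.79, 6.68, 6.68, 7.58 and 5.597 FPKM in PLG 1 to 5. Untreated 2 alone reached the range of the PLG samples (log2 fold change 0.58 with SE 0.14, adjusted p = 0.00338 in limma). Eif2b2, the most abundant subunit, measured 16.2, 19.2, 15.6, 15.7 and 18.4 FPKM in untreated 1 to 5 and 20.1, 20.8, 19.9, 21.5 and 23.8 FPKM in PLG 1 to 5, with a small gap between the groups (log2 fold change 0.30 with SE 0.071, adjusted p = 0.00209 in limma). Eif2b5, the catalytic subunit, was at 11.5 ± 0.702 FPKM untreated and 12.9 ± 1.23 FPKM with PLG (limma adjusted p = 0.0881) and passed as higher without PLG 5 (log2 fold change 0.19) and when scaled by the median of ratios (0.185). Eif2b1 (6.36 ± 1.17 FPKM untreated, 6.79 ± 1.66 FPKM with PLG) and Eif2b3 (1.19 ± 0.1995 FPKM, 1.36 ± 0.227 FPKM) did not pass. The ratio of Eif2s1 to Eif2b5 differed by 0.01 log2 units (exact permutation test, adjusted p = 0.952). Eif2b4 overlaps Snx17 on the opposite strand.

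Most subunits of eIF3, the large scaffold on the small ribosomal subunit, did not pass: of 13 tested, 1 rose and 2 fell. Eif3c, a core subunit, measured 65.3, 82.05, 69.3, 68.7 and 74.2 FPKM in untreated 1 to 5 and 94.6, 91.5, 95.1, 99.2 and 95.4 FPKM in PLG 1 to 5. The untreated samples spread more widely than the PLG samples but stayed below them (log2 fold change 0.40 with SE 0.057, adjusted p = 3.43e-05 in limma). Eif3a, the largest subunit, measured 55.6, 52.04, 53.9, 53.5 and 53.5 FPKM in untreated 1 to 5 and 46.9, 42.9, 44.04, 46.6 and 46.6 FPKM in PLG 1 to 5 and fell without overlap (log2 fold change -0.24 with SE 0.042, adjusted p = 2.39e-04 in limma). Eif3l, a peripheral subunit, fell from 22.9 ± 1.54 FPKM to 20.2 ± 0.948 FPKM (log2 fold change -0.17 with SE 0.057, adjusted p = 0.0175 in limma), with overlap.

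The 10 eIF3 genes that did not pass ranged from 3.85 ± 0.516 FPKM for Eif3j1 to 63.2 ± 2.75 FPKM for Eif3h in untreated samples. With PLG these were at 4.09 ± 0.375 FPKM and 66.1 ± 5.07 FPKM. Eif3b, another core subunit, was at 61.8 ± 2.98 FPKM untreated and 58.2 ± 3.23 FPKM with PLG (limma adjusted p = 0.158), and passed as lower after quantile normalization (log2 fold change -0.25). Eif3i, at 13.7 ± 1.59 FPKM untreated and 12.2 ± 0.974 FPKM with PLG, passed as lower without untreated 1 (log2 fold change -0.20) and after quantile normalization (-0.21). Eif3j2, a near copy of Eif3j1, was at 0.047 to 0.495 FPKM (4 to 48 reads per library) and was not tested. The summed FPKM of all eIF3 genes was 413 ± 9.67 untreated and 429 ± 17.6 with PLG (SD, n = 5 each).

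Of the factors of late initiation and of eIF5A, Eif5, the GTPase-activating protein of eIF2, did not pass (34.3 ± 3.48 FPKM untreated, 37.3 ± 2.64 FPKM with PLG; limma adjusted p = 0.1604), but passed as higher when scaled by the median of ratios (log2 fold change 0.16). Eif5b, the GTPase that joins the large subunit, measured 16.7, 15.1, 14.5, 15.7 and 16.6 FPKM in untreated 1 to 5 and 12.6, 12.3, 13.1, 13.7 and 13.6 FPKM in PLG 1 to 5. It fell without overlap (log2 fold change -0.25 with SE 0.057, adjusted p = 0.00177 in limma). Eif5a, which needs the modified residue hypusine and was among the most abundant members in both groups, was at 132 ± 12.1 FPKM untreated and 125 ± 4.88 FPKM with PLG (limma adjusted p = 0.317), but passed as lower after quantile normalization (log2 fold change -0.32, limma adjusted p = 2.75e-04). Its paralog Eif5a2 was far lower, at 0.866, 0.791, 1.54, 0.896 and 0.948 FPKM in untreated 1 to 5 and 1.75, 1.47, 1.5, 2.304 and 2.16 FPKM in PLG 1 to 5. It rose, although untreated 3 lay within the PLG range (log2 fold change 0.50 with SE 0.12, adjusted p = 0.00273 in limma). The log2 ratio of Eif5a to Eif5b rose by 0.19 (exact permutation test, adjusted p = 0.0370), a call lost without PLG 1 (0.17) and without PLG 3 (0.20), and after quantile normalization the difference was -0.0014.

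**Figure D4:**
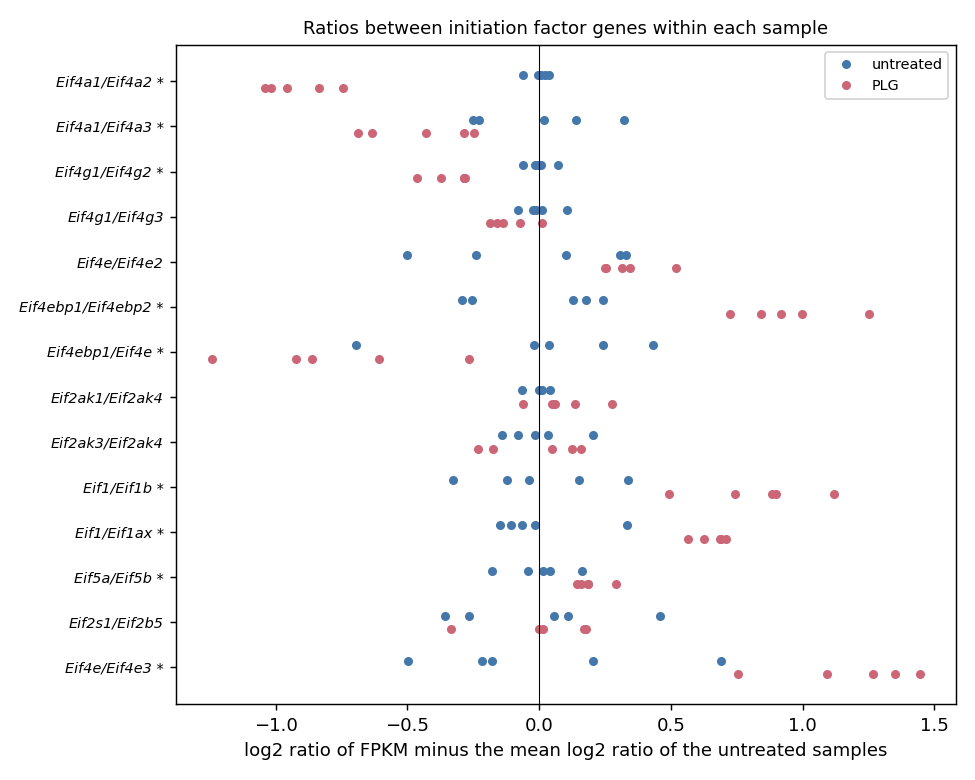
Log2 ratio of FPKM between initiation factor genes in each sample, minus the mean of the untreated samples. Asterisks mark the 9 of 14 pairs with an adjusted p under 0.05 in the exact permutation test. The ratio of Eif4e to Eif4e3 is 1.18 higher and that of Eif4a1 to Eif4a2 0.92 lower with PLG.

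The order of levels, compared in FPKM and so per length, changed at the top. In untreated samples it ran Eif4a1, Eif5a, Eif4g2, Eif3c, Eif4g1 and Eif1, and with PLG Eif5a, Eif1, Eif4a1, Eif3c, Eif4g2 and Eif3h. Neighbours in this order often lay within their spread: Eif4a1 (135 ± 5.33 FPKM) and Eif5a (132 ± 12.1 FPKM) in untreated samples, and Eif1 (103 ± 12.7 FPKM) and Eif4a1 (102 ± 5.64 FPKM) with PLG. Eif4ebp2 went from rank 12 to rank 18 and Eif4e from rank 42 to rank 33.

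**Figure D5:**
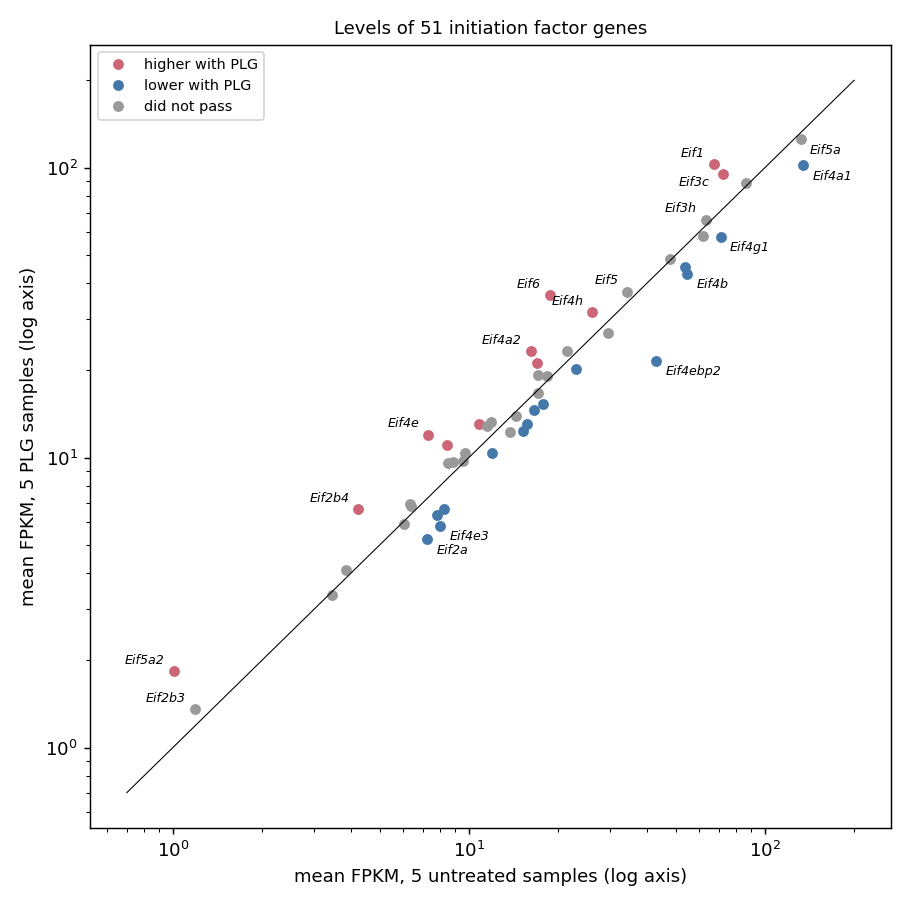
Mean FPKM of the 51 tested initiation factor genes in 5 untreated samples (x axis, log) and 5 PLG samples (y axis, log), coloured by call; the line marks equal levels. Most genes lie near the line, with Eif4ebp2 (42.9 and 21.6 FPKM) below it and Eif6 (18.7 and 36.4 FPKM) above it.

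Other genes of translation control were read from lists chosen with earlier results of these data known. Of 71 tested, 25 rose, 20 fell and 26 did not pass, or 63.4% called against the background of 60.4%. By list, in the order below, the called shares were 77.3%, 81.2%, 63.6%, 40.0% and 33.3%. Scaled to a common sum, 17 rose and 8 fell, and after quantile normalization 20 rose and 24 fell. Of the genes named below, Abce1, Ltv1, Eef2, Eef1g, Eef1a1 and Etf1 lost their call with the common sum, Eef1a1 and Etf1 also after quantile normalization, and Dhps without untreated 2, PLG 3 and PLG 4. Atf3 and Dnajc3, also named below, passed in 17 and 22 of 23 alternatives only (highest adjusted p = 0.576 and 0.378 in limma).

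Among 22 genes of the cap complex and its control by mTORC1, the kinase complex that phosphorylates the eIF4E-binding proteins, 11 rose and 6 fell. Ddit4 (REDD1), an inhibitor of mTORC1 induced by stress, rose from 1.79 ± 1.21 FPKM to 20.5 ± 2.86 FPKM (log2 fold change 3.02 with SE 0.21, adjusted p = 2.80e-08 in limma). Sesn2, a leucine sensor that restrains mTORC1, rose from 13.8 ± 0.585 FPKM to 25.5 ± 1.74 FPKM, and Cyfip1, which binds eIF4E in the FMRP complex, from 19.4 ± 1.32 FPKM to 34.5 ± 1.79 FPKM (limma adjusted p = 1.66e-08 and 3.00e-08). Mknk1, a kinase of eIF4E, fell from 16.9 ± 0.887 FPKM to 9.48 ± 0.938 FPKM (limma adjusted p = 2.54e-07). Of the kinases and substrates downstream, Mknk2 (63.4 ± 2.93 FPKM untreated, 65.3 ± 2.102 FPKM with PLG) and Rps6 (99.1 ± 8.88 FPKM, 97.5 ± 8.51 FPKM) did not pass. Chosen after their values were seen, Mtor and its partner Rptor rose, from 9.41 ± 0.619 FPKM to 13.8 ± 0.878 FPKM and from 5.11 ± 0.557 FPKM to 8.297 ± 0.439 FPKM, while the S6 kinase Rps6kb1 fell from 9.65 ± 1.37 FPKM to 4.67 ± 0.306 FPKM (limma adjusted p = 9.96e-06, 7.68e-06 and 9.59e-07).

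Among 16 genes listed for eIF2 phosphorylation, which include regulators and phosphatase subunits beside response genes, 9 rose and 4 fell. Atf4, the transcription factor translated when eIF2 is phosphorylated, rose from 48.7 ± 2.903 FPKM to 83.2 ± 9.53 FPKM (log2 fold change 0.76 with SE 0.073, adjusted p = 7.30e-07 in limma), and its targets Asns and Trib3 rose from 6.87 ± 1.59 FPKM to 17.4 ± 0.834 FPKM and from 3.001 ± 0.8204 FPKM to 7.44 ± 0.783 FPKM (limma adjusted p = 4.28e-07 and 4.16e-06). Ppp1r15a (GADD34), the inducible subunit of the eIF2 phosphatase, rose from 12.8 ± 1.27 FPKM to 26.1 ± 1.89 FPKM (limma adjusted p = 4.32e-08). The constitutive subunit Ppp1r15b (32.3 ± 2.22 FPKM untreated, 33.03 ± 1.59 FPKM with PLG) and the catalytic subunit Ppp1ca (64.7 ± 2.99 FPKM, 66.4 ± 8.95 FPKM) did not pass. The genes that fell, named after their values were seen, were Impact, an inhibitor of GCN2 activation, from 24.7 ± 1.72 FPKM to 17.6 ± 2.19 FPKM, the phosphatase subunit Ppp1cc, the chaperone Dnajc3 and the transcription factor Atf3. Phosphorylation of eIF2 was not measured.

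Of 11 genes of scanning, reinitiation and recycling, 2 rose and 5 fell. The helicase Ddx3x fell from 75.6 ± 5.71 FPKM to 54.3 ± 1.9 FPKM, the recycling factor Abce1 from 16.1 ± 1.44 FPKM to 12.9 ± 0.656 FPKM and the small-subunit assembly factor Ltv1 from 9.91 ± 1.22 FPKM to 7.76 ± 0.692 FPKM (limma adjusted p = 4.23e-06, 0.001495 and 0.00649). Denr, a reinitiation factor, rose from 5.17 ± 0.646 FPKM to 8.86 ± 0.981 FPKM (limma adjusted p = 1.50e-05). Bzw1, a mimic of eIF5, and the scanning helicase Dhx29 did not pass (64.4 ± 3.29 FPKM and 5.29 ± 0.538 FPKM untreated, 68.98 ± 3.898 FPKM and 4.99 ± 0.381 FPKM with PLG).

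Of 10 genes of hypusine formation in eIF5A and of polyamine turnover, 2 rose and 2 fell. Smox, the spermine oxidase, rose from 12.3 ± 2.38 FPKM to 31.98 ± 2.03 FPKM, and Dhps, which starts hypusine formation, from 6.99 ± 0.771 FPKM to 9.68 ± 1.45 FPKM (limma adjusted p = 5.41e-08 and 0.00306). Srm, the spermidine synthase, fell from 16.5 ± 1.76 FPKM to 8.77 ± 1.26 FPKM, and Sat1, which acetylates polyamines, from 47.6 ± 4.297 FPKM to 30.8 ± 6.51 FPKM (limma adjusted p = 3.50e-06 and 3.26e-04). Oaz1, the antizyme of ornithine decarboxylase, and Azin1, its inhibitor, did not pass (40.4 ± 2.87 FPKM and 19.5 ± 1.61 FPKM untreated, 41.9 ± 6.59 FPKM and 17.4 ± 1.58 FPKM with PLG).

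Among 12 tested elongation and termination factors, 1 rose and 3 fell. The elongation factors Eef2, Eef1g and Eef1a1 fell from 508 ± 19.6 FPKM to 433 ± 16.7 FPKM, from 67.1 ± 4.79 FPKM to 58.4 ± 2.02 FPKM and from 893 ± 43.5 FPKM to 790.3 ± 49.7 FPKM (limma adjusted p = 6.61e-04, 0.005302 and 0.0163). Etf1, the termination factor that reads stop codons, rose from 46.4 ± 2.61 FPKM to 53.4 ± 1.81 FPKM (limma adjusted p = 0.00251), and Eef1b2 (34.8 ± 2.3 FPKM untreated, 35.7 ± 7.49 FPKM with PLG) and Gspt1 (18.3 ± 1.98 FPKM, 18.7 ± 0.717 FPKM) did not pass. Eef2k, the kinase that inactivates eEF2, reached 1 FPKM in 4 samples only and so was not tested with the rest. Chosen after its values were seen, it measured 0.81, 1.52, 1.55, 1.41 and 1.43 FPKM in untreated 1 to 5 and 0.124, 0.262, 0.111, 0.138 and 0.223 FPKM in PLG 1 to 5, with every PLG sample below every untreated one.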

How the data were processed

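RNA-seq of 10 samples was analysed, 5 untreated and 5 treated with PLG, grouped by their labels. The members and the gene lists were chosen with earlier results of these data known. FPKM of each protein-coding gene, computed by the authors, were deposited with 3 decimals, beside the gene length per the file headers. Per the submitters' processing notes the build was GRCm38.p6; the tools named there, without roles, are STAR 2.7.3a, featureCounts 2.0.0, cutadapt 2.10, DESeq2 1.24.0 and FastQC 0.11.9. Which annotation and strand setting served, and how multiply matching reads were treated, is not given in the sources used here. The identifiers and coordinates of all 55 members occur in GENCODE M21; 13 members overlap another protein-coding gene, 2 of them on the same strand.

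Low FPKM values were whole multiples of 1 read per gene length (100.0% of those examined, to within 0.1 read), which gave the depth of each library. Values were tested as log2(FPKM + 1) with limma 3.58.1 in R 4.3.3, with an intensity trend and Benjamini-Hochberg adjustment over 9997 genes with at least 1 FPKM in at least 5 samples; calls had an adjusted p under 0.05. A fold change on this scale understates the change of low genes. For 14 pairs of members, the log2 ratio of FPKM within each sample was compared by an exact permutation test, 2-sided, with adjustment over the 14. Full statistics were given for up to 12 members with the largest changes in each direction among those past the threshold (11 rose), the most abundant of each group and the members of the ratios; of each other list, up to 4 genes with the smallest p and 2 abundant genes that did not pass were named. Of 23 alternatives, 21 were planned and 2, about the repeat-like models, were added after seeing the data. Samples with the same number did not deviate together (correlations -0.121 to 0.0988), so the numbers were not used as pairs.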

Additional observations from a re-analysis of the deposited data

Results flagged for a closer look

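In 6 of 102 groups of 5 samples, 1 sample stood further from the rest than Dixon's test allows at the 95% level; chance alone flags about 1 in 20 groups. Eif2d was at 4.77 FPKM in untreated 2 and at 2.84 to 3.39 FPKM in the other untreated samples. Eif3d was at 10.1 FPKM in untreated 5, with the others at 8.32 to 8.79 FPKM. Eif4g2, the abundant scaffold of cap-independent initiation, was at 95.2 FPKM in the same sample, with the others at 82.4 to 85.1 FPKM. Eif3m was at 12.1 FPKM in untreated 4, below the other untreated samples at 18.1 to 19.0 FPKM. Eif5a2 was at 1.54 FPKM in untreated 3, above the others at 0.791 to 0.948 FPKM. In the PLG group, Eif3l was at 21.9 FPKM in PLG 3 and at 19.5 to 20.05 FPKM in the other samples. The causes were not tested.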

How the results depend on the processing

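Leaving out each sample in turn gave 25 to 27 called initiation factors (26 with all samples), 11 to 12 higher and 14 to 15 lower; 40 to 44 called partner genes (45), 23 to 26 higher and 15 to 20 lower; and 6 to 10 of the 14 ratios (9). Over all genes, 5710 to 6081 passed in these fits (6040), 2701 to 2978 higher and 2936 to 3133 lower. A common sum of FPKM gave 14 initiation factors, 4 of them lower, and 25 partner genes, 17 higher and 8 lower; the cause was not tested. It gave 2182 lower genes in all. A filter of 5 FPKM gave 4318 genes, with 2133 lower. With a replicate block, 24 initiation factors passed, Eif1b and Eif2ak1 losing their call, and 0 ratios passed, since the smallest p of 5 pairs is 0.0625. In this pairing 1 of 5 untreated samples correlated best with its own number.

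Members whose sign turned had not passed with the main settings, but 2 of them, Eif3f and Eif4g2, passed as lower under quantile normalization (adjusted p = 0.0350 and 0.00208 in limma), which gave 32 called members, 21 of them lower. Under quantile normalization the log2 fold changes became -0.013 for Eif3e, -0.14 for Eif3f, -0.11 for Eif3h, -0.029 for Eif4a3, -0.19 for Eif4g2 and -0.0018 for Eif5, and the ratio differences -0.0014 for Eif5a to Eif5b, which had passed, and -0.0039 for Eif2s1 to Eif2b5. The common sum gave 0.0061 for Eif1ax, 0.016 for Eif2d, 0.0045 for Eif3k and 0.0029 for Eif4ebp1, and the median of ratios 0.012 for Eif2d. Without untreated 2, PLG 3 and PLG 4, values were 0.060 for Eif2d, -0.049 for Eif2b1, -0.018 for Eif3d, -0.20 for Eif4a3 and 0.11 for Eif4ebp1; with the repeat-like models as a covariate, -0.084 for Eif2b1, -0.050 for Eif3e, -0.0069 for Eif3f, -0.034 for Eif4a3 and 0.018 for Eif4ebp1. Leaving out 1 sample at a time, log2 fold changes ran from -0.078 to 0.0047 for Eif1ax, -0.071 to 0.076 for Eif2d, -0.0225 to 0.19 for Eif2b1, -0.021 to 0.076 for Eif3e, -0.0041 to 0.064 for Eif3f, -0.085 to 0.036 for Eif3k, -0.024 to 0.11 for Eif4a3 and -0.12 to 0.024 for Eif4ebp1, and ratio differences from -0.084 to 0.12 for Eif2s1 to Eif2b5 and -0.057 to 0.040 for Eif2ak3 to Eif2ak4.

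Of the tested members, Eif5a2, Eif2b3, Eif2d and Eif3j1 were below 5 FPKM in both groups. They held 129 to 768, 194 to 765, 745 to 1772 and 651 to 1557 reads per library. The part of read depth in their precision was not tested. Between paralogs, shared reads cannot be apportioned from FPKM.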
